A study of Nothobranchius furzeri with 39 samples.

Results

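The genes per3 and bhlhe41 belong to the circadian clock of vertebrates, and their transcripts were followed through every table of a killifish mutant series. Both were found by symbol, as 2 of 25099 genes in the table of 2-month fish and 2 of 16383 genes in each of the 2 tables of 3-month fish. They were chosen for their levels by tissue, genotype and sex and for how those levels vary together across libraries, so all these values are given as a description, with no test. In RefSeq's gene list for assembly NfurGRZ-RIMD1, per3 lies on chromosome 3 and bhlhe41 on chromosome 4, where 9 protein-coding genes separate bhlhe41 from the clock activator bmal2.

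In the vertebrate clock, the activators CLOCK or NPAS2 and BMAL bind E-box elements and switch on genes of their own repressors, the period (PER) and cryptochrome (CRY) proteins, which then shut the activators down over the course of a day. The gene per3 encodes a PER protein. The gene bhlhe41 (also known as DEC2) encodes a basic helix-loop-helix repressor that competes for E-boxes and is itself driven through them, and a second loop runs through nuclear receptors of the Rev-erb (nr1d) and ROR (ror) families. In fish as in mammals, brain and liver hold clocks of their own, and many clock transcripts rise and fall with the hour, with light and with feeding.

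Fish were turquoise killifish (Nothobranchius furzeri), which live only months, kept here at 28 °C with 12 h of light a day, and polyA RNA was sequenced from them. At 2 months of age, brain and liver came from fish labelled ATM mutant (atm mutants below), ATMcGAS double mutant (double mutants) and WT, the wild type. Each genotype had 2 males and 2 females per tissue, except that 3 atm mutant livers (1 male, 2 females) were analysed. A brain and a liver that share genotype and number in their titles were read as the same fish, which the labels do not state. The gene atm encodes a kinase of the response to DNA breaks, and cgas encodes a sensor of DNA in the cytosol. At 3 months, a table of livers held 3 males labelled Blm1 mutant (blm mutants, blm encoding a helicase of DNA repair) and 4 WT males, and a table of brains held 5 fish labelled cGAS mutant (cgas mutants, 2 males, 3 females) and 2 WT fish (1 male, 1 female). The labels name no allele or zygosity. They give the tissue of the cgas table as brain, while its protocol text speaks of livers. The hour at which a fish was sampled is not in the labels, so its part in any value below was not tested.

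Values are counts per 1000000 (CPM), scaled within each tissue and table, so levels were not compared between tables, nor between the 2 genes, whose lengths were not used here. Depth, with M for 1000000 counts, was 18.63 to 39.28 M in 2-month brains and 25 to 36.82 M in 2-month livers. Over the genes of the 3-month tables it was 19.5 to 24.09 M in livers and 11 to 17.28 M in brains. A list of 15 brain markers summed to 8479 to 11699 CPM in 2-month brains and to 2.27 to 11.5 CPM in livers, and 15 liver markers summed to 57163 to 223831 CPM in livers and to 1352 to 2385 CPM in brains. Of these liver markers 8, among them fga and fabp10a, were under 1 CPM in every brain, so the sum in brains came mainly from the others. The top 20 genes took up 54 and 59.8% of all counts in WT female livers 3 and 4, the high end of a range over livers that began at 30.4%. The cgas gene, listed as mb21d1, had 131 (brain) and 212 (liver) counts in the libraries labelled double mutant 4 and 0 to 9 in the other double mutants, against 271 in WT liver 1 and 0 to 14 in the other WT libraries. Its counts thus did not separate the genotypes, and values of double mutants are also given without fish 4. Behind the values stood 2353 to 6000 counts of per3 and 1670 to 4113 of bhlhe41 per brain, and 931 to 2943 of per3 but 79 to 1208 of bhlhe41 per liver. In tissue RNA, fewer cells of a type and less RNA per cell cannot be told apart.

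In the 2-month brain, per3 was lowest in the atm mutants. Its level was 126 and 119 CPM in atm mutant females 1 and 2 and 107 and 120 CPM in males 3 and 4. It was 137 and 159 CPM in double-mutant females 2 and 3 and 137 and 134 CPM in males 1 and 4, and 155 and 152 CPM in WT females 3 and 4 and 141 and 170 CPM in males 1 and 2. Every atm mutant brain lay below every double-mutant and every WT brain, while double mutants and WT overlapped. Of all 20273 genes tested in brain, 2.67% were likewise lower in every atm mutant than in every WT brain, and 1.55% were higher in every double mutant than in every atm mutant. The mean was 118 ± 8.17 CPM in atm mutants, 142 ± 11.4 in double mutants and 154 ± 11.9 in WT (SD, n = 4 each). With sex as a covariate, the log2 fold change of per3 was -0.39 (SE 0.0793) in atm mutants against WT, -0.12 in double mutants against WT and 0.26 in double mutants against atm mutants. Leaving out each brain in turn moved the first of these to between -0.42 and -0.32, and without the brain labelled double mutant 4 the others were -0.11 and 0.28.

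The brain level of bhlhe41 differed less between genotypes and more between the sexes. It was 90.9 and 92.1 CPM in atm mutant females and 85 and 80.7 CPM in males. In double mutants it was 120 and 104 CPM in females and 88.3 and 97.1 CPM in males, and in WT 106 and 110 CPM in females and 87.4 and 97.2 CPM in males. The 3 genotypes overlapped one another, but within each genotype both males lay below both females, an order that 0.765% of all genes shared. The genotype means were 87.2 ± 5.3 CPM in atm mutants, 102 ± 13.3 in double mutants and 100 ± 10.1 in WT (SD, n = 4 each). The log2 fold change of bhlhe41 was -0.2 (SE 0.0689) in atm mutants against WT, 0.03 in double mutants against WT and 0.23 in double mutants against atm mutants.

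Across genotypes, males averaged 89.3 ± 6.65 CPM of bhlhe41 in brain and females 104 ± 11 CPM (SD, n = 6 each). The ranges, 80.7 to 97.2 CPM in males and 90.9 to 120 CPM in females, overlapped, and the log2 fold change of males against females with genotype as a covariate was -0.21. For per3 it was -0.08, with 135 ± 21.3 CPM in males and 141 ± 16.3 CPM in females (SD, n = 6 each) and broad overlap. Depth moved with bhlhe41. The 6 brains over 25 M averaged 104 CPM and the 6 under it 89.4 CPM, while per3 averaged 141 and 136 CPM. Once depth over or under 25 M was added to the fit, males against females stood at -0.19 for bhlhe41. All WT brains over 25 M were female and all WT brains under it male, but among atm mutants the 1 brain over it was male.

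**Figure D1:**
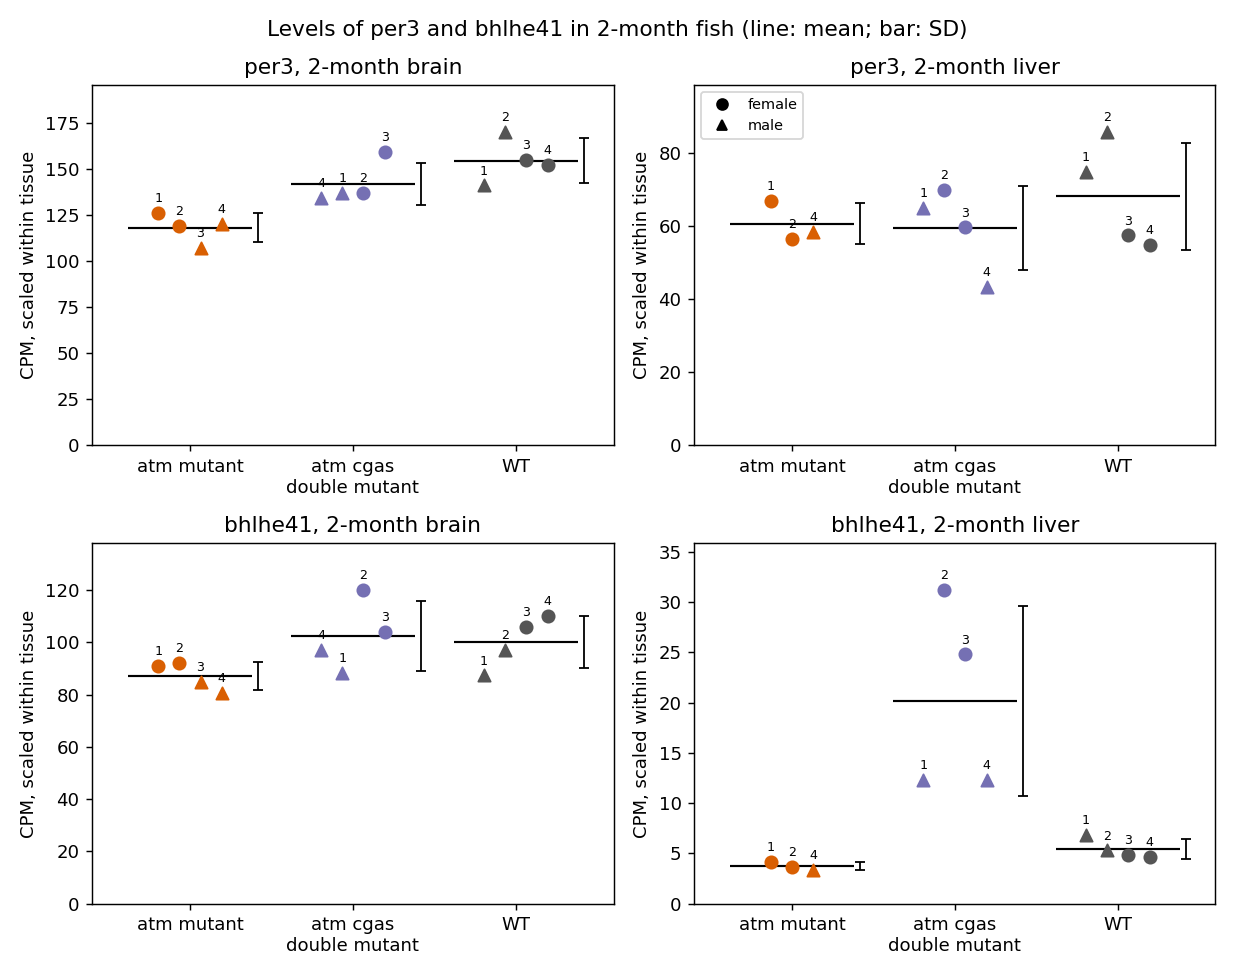
CPM of per3 (top) and bhlhe41 (bottom) in each 2-month brain and liver, with atm mutants, atm cgas double mutants and WT from left to right, fish numbers beside the points (circles females, triangles males), a line for the mean and a bar for the SD. In brain all atm mutants lie below the others for per3, and in liver all double mutants lie above the others for bhlhe41, at 12.3 to 31.2 CPM.

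In the 2-month liver the genes parted: per3 was much alike in all genotypes, and bhlhe41 was several times higher in the double mutants. The level of per3 was 66.9, 56.4 and 58.4 CPM in atm mutants 1, 2 and 4. In double mutants 1 to 4 it was 65, 69.9, 59.6 and 43.4 CPM, and in WT 1 to 4 it was 74.7, 85.7, 57.4 and 54.9 CPM. The 3 genotypes overlapped, with means of 60.6 ± 5.58 CPM in atm mutants (SD, n = 3), 59.5 ± 11.5 in double mutants and 68.2 ± 14.7 in WT (SD, n = 4 each). Within WT, males 1 and 2 lay above females 3 and 4, and such a gap was not seen in the mutants. The share of all genes with this order is not given here. In these WT females the top 20 genes took 54 and 59.8% of counts, and the part of this in the gap was not tested. The log2 fold change of per3 was -0.15 in atm mutants against WT, -0.19 in double mutants against WT and -0.04 in double mutants against atm mutants. Without the liver labelled double mutant 4, which had the lowest level of all, the last of these turned to 0.11 and double mutants against WT came to 0. Without the livers of WT females 3 and 4, per3 in double mutants against WT was -0.53.

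The liver level of bhlhe41 was 4.17 and 3.65 CPM in atm mutant females 1 and 2 and 3.35 CPM in male 4. In double mutants it was 31.2 and 24.8 CPM in females 2 and 3 and 12.3 CPM in both males. In WT it was 4.82 and 4.66 CPM in females 3 and 4 and 6.83 and 5.29 CPM in males 1 and 2. All 3 genotypes were separate, with atm mutants lowest (3.72 ± 0.414 CPM, SD, n = 3), double mutants highest (20.2 ± 9.39 CPM, SD, n = 4) and WT between them (5.4 ± 0.988 CPM, SD, n = 4). Among all 16174 genes tested in liver, 3.71% were lower in every atm mutant than in every WT liver, 3.8% higher in every double mutant than in every WT liver and 7.12% higher in every double mutant than in every atm mutant. The log2 fold change of bhlhe41 was -0.65 in atm mutants against WT, 1.79 (SE 0.287) in double mutants against WT and 2.44 (SE 0.321) in double mutants against atm mutants. Without the liver labelled double mutant 4 the last 2 were 1.99 and 2.59, and the 3 other double mutants averaged 22.8 ± 9.57 CPM (SD, n = 3).

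The difference of bhlhe41 between double-mutant and WT livers was wider in females, at 28 against 4.74 CPM, than in males, at 12.3 against 6.06 CPM (means of 2 fish each). Without the livers of WT females 3 and 4 the log2 fold change in double mutants against WT was 1.22. The sexes stood in opposite order in the genotypes: males were below females in double mutants and in atm mutants, with 1 male, and above them in WT. Of all genes tested in liver 1.61% had this order. Over all livers, the log2 fold change of males against females was -0.39 for bhlhe41 and 0.08 for per3, and without the livers of WT females 3 and 4 it was -0.84 and -0.22. A list of 6 blood cell markers summed to 67.4 to 87.8 CPM in double-mutant livers 1 to 3 and 313 CPM in liver 4, against 216 CPM in WT liver 1 and 31.5 to 76.4 CPM in the other WT livers. Their part in the level of bhlhe41 was not tested.

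Spread across libraries set the 2 genes apart by tissue. In brain, the SD of log2 CPM over 12 libraries was 0.19 for per3 and 0.17 for bhlhe41, where the median of all genes was 0.19. In liver it was 0.26 for per3 and 1.11 for bhlhe41 over 11 libraries, with a median of 0.43, so that 20.3% of genes varied less than per3 and 91% less than bhlhe41. The highest liver level of bhlhe41 was 9.29 times the lowest, and that of per3 1.98 times. Among the 7 livers of atm mutants and WT, this ratio was 2.04 for bhlhe41 and 1.56 for per3.

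Between the tissues of the same fish, the direction for per3 depended on the scaling. The top 20 genes took 30.4 to 59.8% of the counts in livers and 7.75 to 10.5% in brains. Scaled within each tissue apart, per3 averaged 62.9 ± 11.3 CPM in livers (SD, n = 11) and 138 ± 18.4 CPM in brains (SD, n = 12), and bhlhe41 averaged 10.3 ± 9.39 CPM in livers and 96.5 ± 11.5 CPM in brains. With joint TMM scaling and the fish as a block, the log2 fold change of liver against brain was 0.55 (SE 0.102) for per3 and -1.95 (SE 0.296) for bhlhe41, where the median of all genes was -0.43. On total counts these values were -1.17 for per3 and -3.68 for bhlhe41, with a median of -2.14. Relative to the median gene, per3 was thus higher in liver and bhlhe41 lower in liver under both scalings. The log2 fold change was lower than that of per3 at 69% of genes and lower than that of bhlhe41 at 30.2% (TMM), and at 68.9% and 30% on total counts.

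In the 3-month livers of blm mutants and WT, all male, the 2 genes stood in opposite order. The level of per3 was 78.9, 98.7 and 78.6 CPM in blm mutants L3, L29 and L30 and 92.7, 115, 99.1 and 114 CPM in WT L7, L8, L19 and L33. Mutants L3 and L30 lay below every WT liver and L29 lay within their range. The blm mutants averaged 85.4 ± 11.5 CPM (SD, n = 3) and WT 105 ± 11.2 CPM (SD, n = 4). Their log2 fold change of per3 was -0.3, and -0.42 to -0.25 with each liver left out in turn. The level of bhlhe41 was 29.2, 9.18 and 23.4 CPM in blm mutants L3, L29 and L30 and 5.62, 16.8, 9.58 and 11.1 CPM in WT L7, L8, L19 and L33. The same mutants, L3 and L30, lay above every WT liver, and L29 again fell within the range of WT. The means were 20.6 ± 10.3 CPM in blm mutants (SD, n = 3) and 10.8 ± 4.62 CPM in WT (SD, n = 4). The log2 fold change of bhlhe41 was 0.94 and lay between 0.6 and 1.28 when each liver was left out in turn. As at 2 months, bhlhe41 varied more than most liver genes (91.9% of 10374 genes varied less) and per3 did not (32.8%). The 4 blood markers of this table summed to 343, 100 and 90.2 CPM in mutants L3, L29 and L30 and to 45 to 70.3 CPM in WT. Counts of mb21d1 were 362, 2 and 92 in the same mutants and 1 to 9 in WT. The part of either in these levels was not tested.

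In the 3-month brains, both genes overlapped between cgas mutants and WT, and per3 had the smaller spread. Its level was 170, 189 and 175 CPM in cgas mutant females and 147 and 162 CPM in males, and 159 CPM in the WT female and 173 CPM in the WT male. Both WT brains lay within the range of the mutants, and the means were 169 ± 15.7 CPM in cgas mutants (SD, n = 5) and 166 ± 9.88 CPM in WT (SD, n = 2). Only 3.66% of 13825 genes varied less across these 7 brains. The level of bhlhe41 was 86.1, 96.5 and 78.1 CPM in cgas mutant females and 114 and 75.6 CPM in males, and 105 CPM in the WT female and 98.8 CPM in the WT male. Again both WT brains lay within the mutant range. The log2 fold change was 0.01 for per3 and -0.18 for bhlhe41, and that of per3 was -0.16 without the WT female and 0.17 without the WT male. The order of the sexes seen for bhlhe41 within each genotype of 2-month brains did not hold in the cgas mutants. Their males, at 75.6 and 114 CPM, lay on both sides of their females, at 78.1 to 96.5 CPM. The WT male, at 98.8 CPM, lay below the WT female, at 105 CPM. The brains differed in more than genotype: 5 intestinal markers summed to 10 to 26.3 CPM in cgas mutants and 159 to 372 CPM in WT, and the share of counts in the top 20 genes was 16.9 to 38.2% in mutants and 11.5% in both WT brains. Counts of mb21d1 were 8 to 18 in mutants, 282 in the WT female and 19 in the WT male. The part of these in the levels was not tested.

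**Figure D2:**
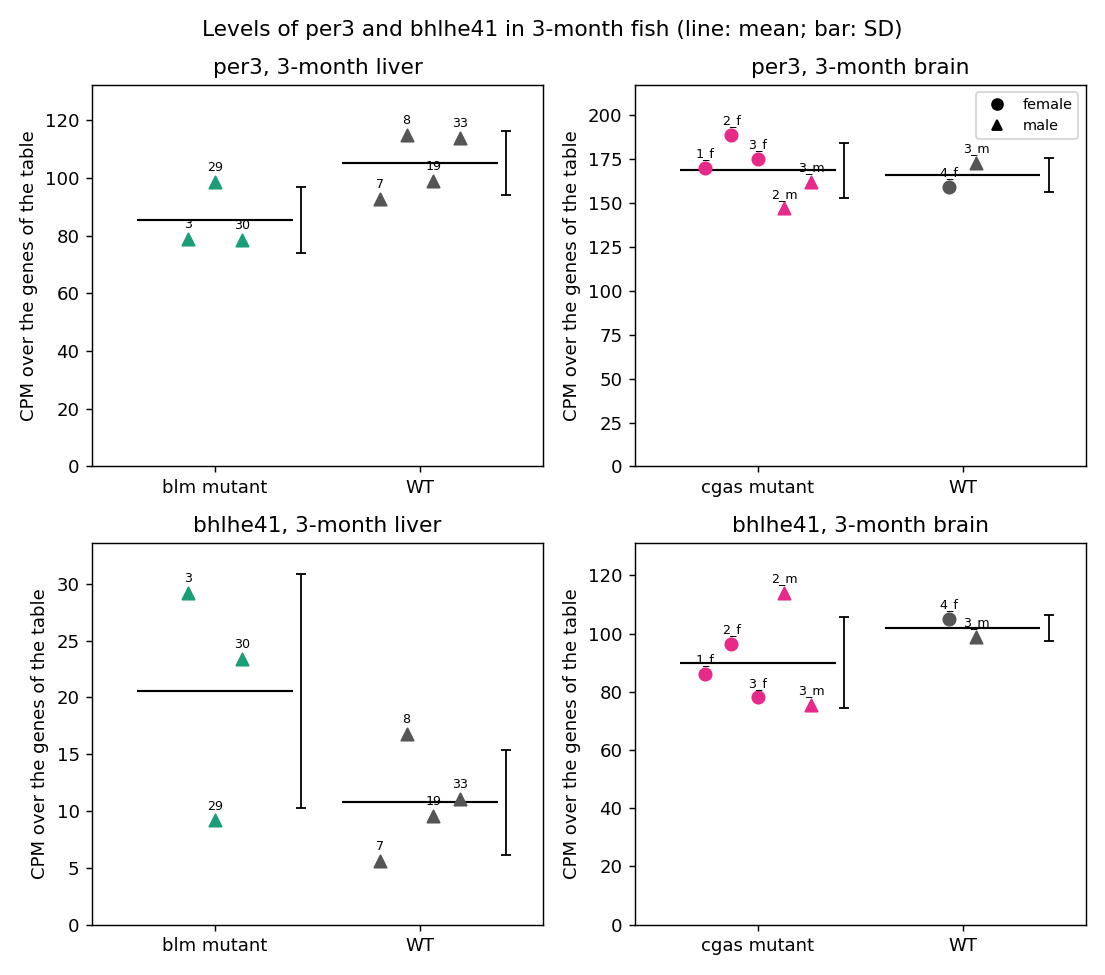
CPM of per3 (top) and bhlhe41 (bottom) in each 3-month liver (left, blm mutants and WT) and brain (right, cgas mutants and WT), with mutants left of WT, library names beside the points (circles females, triangles males), a line for the mean and a bar for the SD. In liver, mutants 3 and 30 lie below all WT for per3 and above all WT for bhlhe41, at 29.2 and 23.4 CPM.

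Across the 12 brains at 2 months, per3 and bhlhe41 were positively related, with Pearson's r = 0.59 and Spearman's rho = 0.64. Without the 2 brains farthest from the median of per3 (atm mutant 3 and WT 2), r was 0.61. It was 0.7 among the 6 brains over 25 M and 0.62 among the 6 under it, and 0.12 and 0.53 without the 2 farthest brains of each. After genotype and sex had been fitted, the deviations had r = -0.19 over all 12 brains and 0.22 over the 8 brains of atm mutants and WT (rho -0.14, and r from -0.19 to 0.57 with each brain left out in turn), where r before the fit was 0.73. Libraries of a group share their genotype, so these values describe the libraries and are not tests.

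Across livers no pooled value applies, because the double mutants stood apart in bhlhe41. Over the 7 livers of atm mutants and WT, r was 0.62 and rho 0.5, and without WT males 1 and 2, which had the highest levels of both genes, r was -0.09. The relation in these livers thus rests on those 2 fish. The 7 livers also span 2 genotypes that did not overlap in bhlhe41. After genotype and sex had been fitted, their deviations had r = 0.6 and rho = 0.82, and r = 0.18 without atm mutants 1 and 4. The deviations of all 11 livers from the fit of genotype and sex had r = 0.7 and rho = 0.64, and r = 0.55 without double mutant 4 and WT 4. This fit takes the same sex difference in every genotype. In WT livers, however, males lay above females for both genes, which did not hold in the mutants. The deviations keep that difference between genotypes, and its part in r was not tested. In the 7 livers at 3 months, r was -0.46 and rho -0.25, and r ran from -0.68 to -0.18 with each liver left out in turn. Without blm mutants L3 and L30, the livers farthest from the median of per3, r was 0.89 over the other 5, the 4 WT livers and blm mutant L29. The negative sign thus rests on 2 of the 3 blm mutants. After genotype had been fitted, the deviations of the 7 livers had r = -0.09 and rho = -0.04. Their r ran from -0.49 to 0.52 with each liver left out in turn, so no direction held. In the 7 brains at 3 months, r was -0.38 and rho -0.46, and r was -0.25 without mutants 2_m and 2_f and ran from -0.62 to 0.08 with each brain left out in turn. The deviations of these brains from the fit of genotype and sex had r = -0.38 and rho = -0.32 (r from -0.69 to 0.06 with each brain left out).

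Brain and liver levels of the same fish were compared next. For per3, r was 0.33 and rho 0.34 over 11 fish, and 0.01 without WT 2 and double mutant 3. For bhlhe41, without the double mutants, r was 0.26 and rho 0.29 over 7 fish, and r was 0.33 without WT 3 and 4 and ran from -0.17 to 0.78 with each fish left out in turn. After the fit of genotype and sex the sign turned: the deviations of these 7 fish had r = -0.77 (-0.85 to -0.5 with each left out in turn), and those of all 11 fish had r = 0.15. For bhlhe41 no direction held under all of these.

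**Figure D3:**
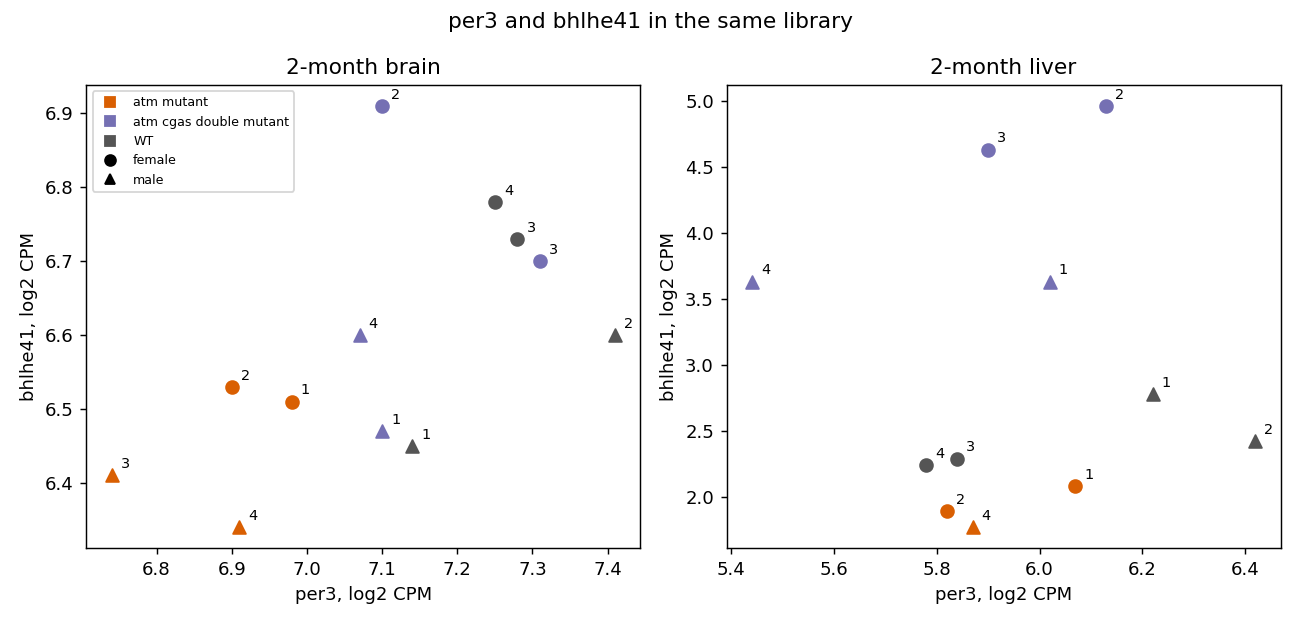
Log2 CPM of bhlhe41 against that of per3 in each 2-month library, brains on the left and livers on the right, coloured by genotype, with fish numbers beside the points (circles females, triangles males). Brains run from the atm mutants at the low end of both genes (r = 0.59, n = 12), and the 4 double-mutant livers lie above the other 7 livers.

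The clock genes whose brain levels were most like those of per3 were Rev-erb, period and cryptochrome genes and dbpa. Over the 12 brains, r with per3 was 0.89 for nr1d2b and 0.77 for nr1d1, both of the Rev-erb family, 0.83 for its paralog per1, 0.81 for the cryptochrome cry2 and 0.75 for dbpa, a PAR bZIP activator driven through E-boxes. After genotype and sex had been fitted these values were 0.67, 0.46, 0.56, 0.38 and 0.49, all positive. Among 51 other clock genes, 8 had an r over 0.6 in size, all positive, or 15.7%, against 9.73% of all 20271 other genes.

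Over the 11 livers, the clock genes most like per3 were nr1d2b (r = 0.72), the PAR bZIP genes hlfb (0.7) and dbp (0.68), nfil3-6 of the family of bZIP repressors that bind the same sites (0.62), and per1 (0.58). After the fit of genotype and sex, r was 0.94 for nr1d2b, 0.9 for hlfb, 0.84 for dbp, 0.9 for nfil3-6 and 0.65 for per1. These values still hold the part of the sex difference in per3 that changed with genotype. Over the 7 livers without double mutants, r was 0.83 for nr1d2b, 0.7 for dbp and 0.94 for per1, but 0.38 for hlfb and 0.27 for nfil3-6. Over all 11 livers, 8.33% of 48 clock genes passed 0.6 in size, against 10.1% of all genes. The genes nr1d2b and per1 were thus among the 5 in both tissues. Their brain means ordered the genotypes as per3 did, an order largely set by choosing them for likeness over these same brains. For nr1d2b these were 143 ± 8.04 CPM in atm mutants, 164 ± 12.2 in double mutants and 174 ± 14.5 in WT, and for per1 62 ± 3.64, 78.2 ± 15.4 and 83.5 ± 6.32 CPM (SD, n = 4 each).

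For bhlhe41 in brain, the most alike clock genes were nr1d2b (r = 0.8), nfil3 (0.77), csnk2b, a subunit of casein kinase 2 (0.76), and cirbp, a cold-inducible RNA-binding protein (0.69), and the activator gene clock ran opposite (-0.76). After genotype and sex had been fitted, r was 0.05 for nr1d2b, 0.38 for nfil3, 0.57 for csnk2b, 0.34 for cirbp and -0.27 for clock. The share of 51 clock genes past 0.6 in size, 11.8%, lay below the 17.5% of all genes.

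In liver, likeness to bhlhe41 followed the double mutants, so each value over 11 livers is given with that over the 7 atm mutant and WT livers. Among those 7, every atm mutant lay below every WT liver for bhlhe41, so values over them include that difference. The named clock genes were the kinase genes gsk3b (r = 0.88 over 11 livers, 0.31 over 7) and wee1 (0.85 and 0.3), and, in the opposite direction, lonrf1 (-0.86 and -0.25), the Rev-erb gene nr1d2a (-0.79 and -0.89) and the cryptochrome gene cry1a (-0.77 and -0.87). The last 2 ran opposite to bhlhe41 with and without the double mutants, as did the gene clock (-0.71 and -0.9). After the fit of genotype and sex over 11 livers, r was 0.7 for gsk3b, 0.68 for wee1, -0.46 for lonrf1, -0.24 for nr1d2a, -0.85 for cry1a and -0.68 for clock. In WT liver 1, which had the highest bhlhe41 of the 7, nr1d2a was at 45.1 CPM, against 80.8 to 84.6 CPM in the other WT livers. Of 48 clock genes 22.9% passed 0.6 in size over 11 livers, against 12.8% of all genes. The neighbour of bhlhe41 on chromosome 4, bmal2, had r = -0.28 with it in brain, and -0.16 over 11 livers and -0.71 over 7. After the fit of genotype and sex, r for bmal2 was 0.07 in brain and 0.41 over 11 livers, so no direction held.

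**Figure D4:**
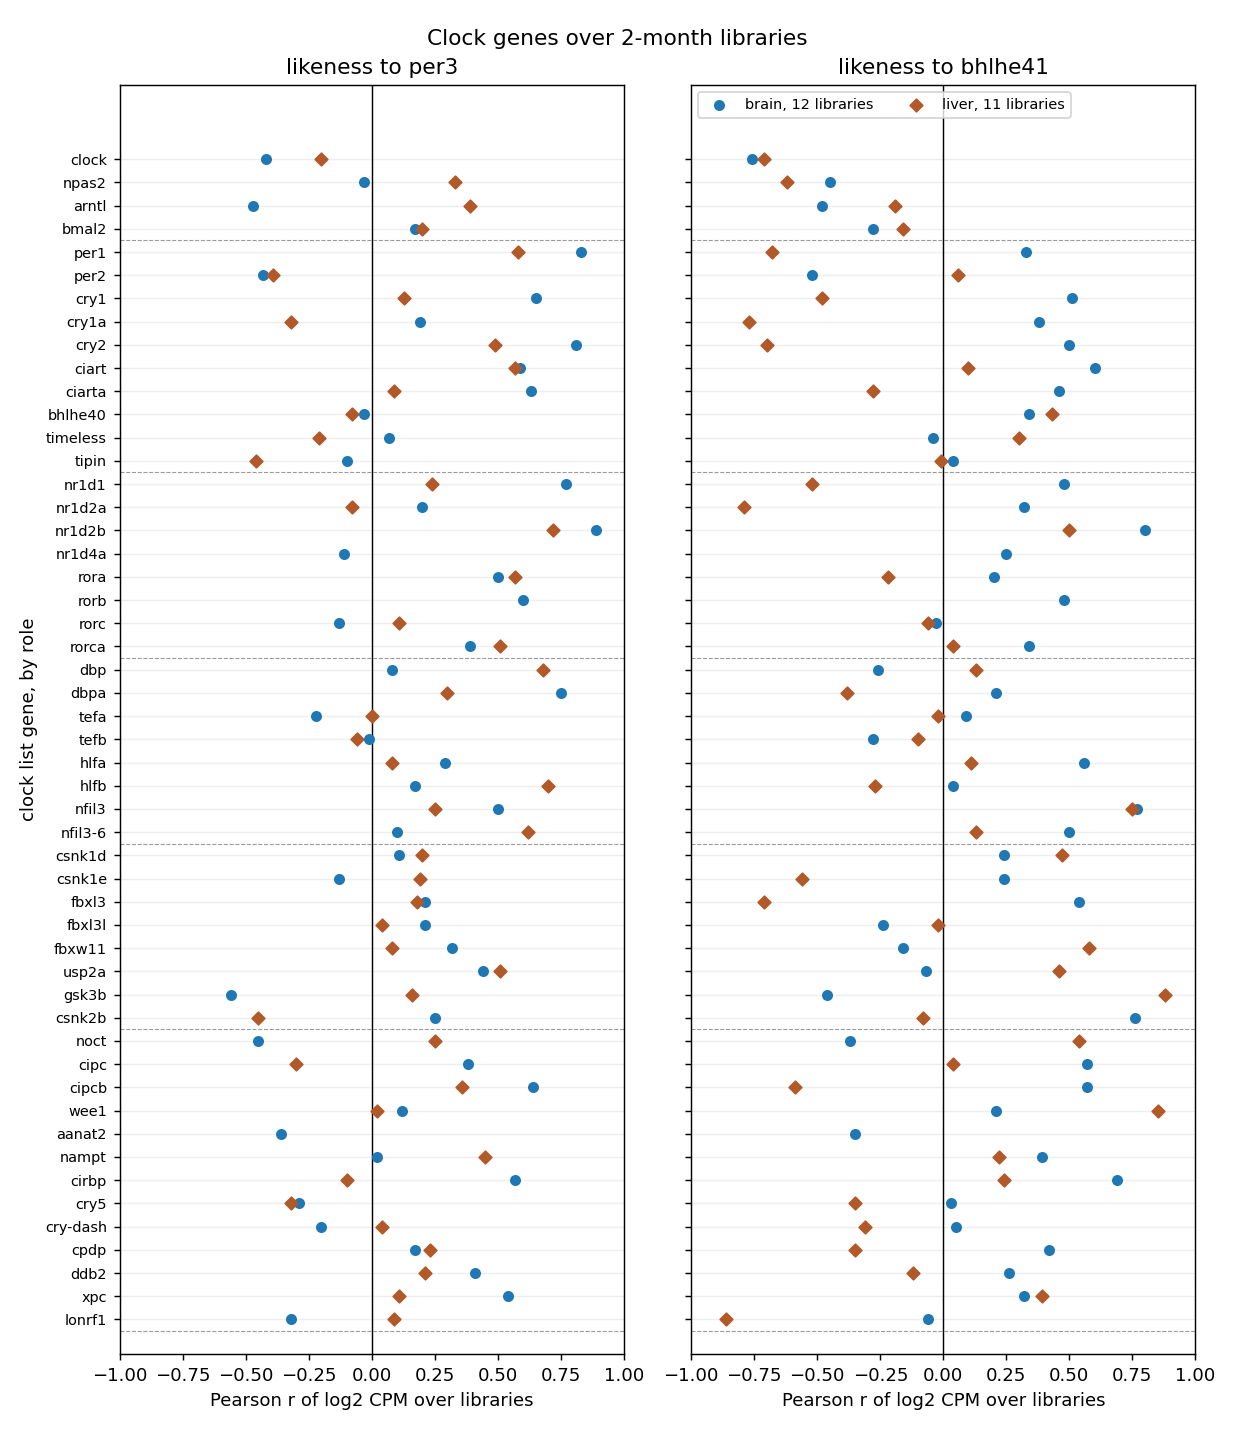
Pearson r, over 2-month libraries, of log2 CPM of each clock gene with per3 (left) and bhlhe41 (right), in brain (circles, 12 libraries) and liver (diamonds, 11 libraries, double mutants included), with dashed lines between the roles: activators, repressors, nuclear receptors, PAR bZIP and nfil3, kinases and ligases, outputs and light-responsive genes. The points of nr1d2b and per1 lie to the right for per3 in both tissues, and clock lies to the left for bhlhe41 in both.

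Among all genes with a symbol and a mean log2 CPM of at least 1, those most like per3 in brain were smurf2, a ubiquitin ligase (r = 0.96), pcif1 and ythdc1, which write and read methyl marks on RNA (0.95 and 0.93), znf341 (0.92) and cwf19l2 (0.92). In liver these 5 had r from -0.34, for smurf2, to 0.64, for znf341. In liver the most alike were upb1, an enzyme of pyrimidine breakdown (0.91), dvl1 of Wnt signalling (0.88), mpped2a (0.88), fam126b (0.88) and igf2bp2, an RNA-binding protein (0.87). In both tissues at once the most alike were lhx9, a homeobox gene (0.76 in brain, 0.77 in liver), hmgxb3 (0.75 and 0.74), nrcama, a neuronal adhesion molecule (0.74 and 0.79), the growth factor receptor gene fgfr2 (0.86 and 0.73) and nr1d2b (0.89 and 0.72). Thus nr1d2b was among the 5 genes most like per3 in both tissues, both among the genes ranked here and on the clock list. Most opposite were stx4, a syntaxin (-0.76 and -0.71), dscr3 (-0.68 and -0.73) and abcc4, a transporter (-0.79 and -0.66). By rank they were less so in liver for stx4 and dscr3, with rho of -0.34 and -0.27, and -0.72 for abcc4. In brain, after the fit of genotype and sex, r was -0.84 for stx4, -0.43 for dscr3 and -0.31 for abcc4.

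Genes most like bhlhe41 in brain were the transcription factor genes sox21 (0.93), zbtb2 (0.93) and pou3f4 (0.89), with chst10 (0.91) and gdap1 (0.89). In liver they were ythdf3, a reader of RNA methylation (0.96), kif5b, a kinesin (0.95), ppm1g, a phosphatase (0.94), rab25 (0.94) and mafbb (0.94). Over the 7 livers without double mutants these 5 had r from 0.19, for kif5b, to 0.74, for ythdf3. In both tissues the most alike were si:ch73-127m5.2 (0.85 in brain, 0.87 in liver), fam89a (0.83 and 0.88), ctnnbip1 (0.81 and 0.82), thap12b (0.8 and 0.9) and pip4k2b (0.81 and 0.8), and the most opposite cltb (-0.77 and -0.77), nfatc2ip (-0.77 and -0.74) and stim1a (-0.73 and -0.79). Over the 7 livers without double mutants, r was 0.12 to 0.63 for the first 5 of these and -0.26 to 0.06 for the last 3. After the fit of genotype and sex, brain r was 0.36 to 0.73 for the first 5 and -0.24 to -0.07 for the last 3. None of the 8 is on the clock list.

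The rest of the clock was then set beside the 2 genes: 52 clock genes were found by symbol in the 2-month table and 37 of them in the 3-month tables. In 2-month brains, edgeR's quasi-likelihood test (Benjamini-Hochberg adjusted p under 0.05) called 0 of 51 between atm mutants and WT, where 0.00987% of all genes were called. At an unadjusted p under 0.05 there were 7 (8.79% of all genes passed this), all with estimates below 0. Chosen after their values were seen, they were the repressor genes per1 (-0.43), ciart (-0.28), ciarta (-0.26) and cry2 (-0.19), the Rev-erb genes nr1d1 (-0.41) and nr1d2b (-0.29), and dbpa (-0.3), each with an adjusted p of 0.54. DESeq2's Wald test called 1 of them, nr1d2b, and 0.153% of all genes. Over the list, 21 estimates lay above 0 and 30 below, with a median of -0.04, where the median of all genes was 0. By role, the medians were 0.08 for activators, -0.13 for repressors, -0.09 for nuclear receptors, -0.06 for PAR bZIP and nfil3 genes, -0.04 for kinases and ligases and -0.03 for outputs, beside -0.39 for per3 and -0.2 for bhlhe41.

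The double mutants gave no clock calls in brain. Against WT, edgeR called 0 of 51 (background 0.00493%), with 2 at an unadjusted p under 0.05 (5.4% of all genes), and DESeq2 called 0 (0.113% of all genes). Against atm mutants it called 0 (background 0%), with 5 at an unadjusted p under 0.05 (5.31% of all genes), and DESeq2 called 0 (0% of all genes). The median log2 fold change of the list was 0.07 against atm mutants, with 34 estimates above 0 and 16 below, and -0.01 against WT. Between males and females in brain, edgeR and DESeq2 called 0 of 51, with 2 at an unadjusted p under 0.05 by edgeR. Of all genes, 0.00493% were called by edgeR, 0.197% by DESeq2 and 8.99% passed the unadjusted p.

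In liver, edgeR called 0 of 48 clock genes between atm mutants and WT (background 0%), with 3 at an unadjusted p under 0.05 (10% of all genes), and DESeq2 called 0 of the 46 to which it gave an adjusted p (0.851% of all genes). Between double mutants and WT it called 0 (background 0.662%), with 15 at an unadjusted p under 0.05, or 31.2% of the list against 19.5% of all genes. DESeq2 called 6 of 45, or 13.3% against 8.66% of all genes. These, chosen after their values were seen, were nr1d2a (log2 fold change -0.92 in edgeR), lonrf1 (-0.83), cry2 (-0.83), dbpa (-0.79) and per1 (-0.71), all lower in double mutants, and gsk3b (0.83), which was higher. Leaving out 1 liver at a time gave 0 to 3 calls by edgeR, with 3 without double mutant 4 and 3 without WT 1. Shares of all genes called with a liver left out are not given here, so such counts describe only how stable the calls were. Between double mutants and atm mutants, edgeR called 0 (background 0.0433%), with 13 at an unadjusted p under 0.05 (27.1% of the list, 11.5% of all genes), and DESeq2 called 2 of 46, lonrf1 and nr1d2a (4.35% of the list, 2.51% of all genes). Without double mutant 4 edgeR called 2. The median log2 fold change of the list was 0.03 in atm mutants against WT, -0.03 in double mutants against WT and -0.14 in double mutants against atm mutants, against medians of -0.02, 0 and 0.04 over all genes. Beside the 1.79 and 2.44 of bhlhe41 in double mutants, the highest values on the list were 1.27 against WT (per2, SE 0.836) and 0.86 against atm mutants (wee1, SE 0.25). As bhlhe41 was chosen for its levels by genotype, its place above the list is a description and no result about the clock.

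**Figure D5:**
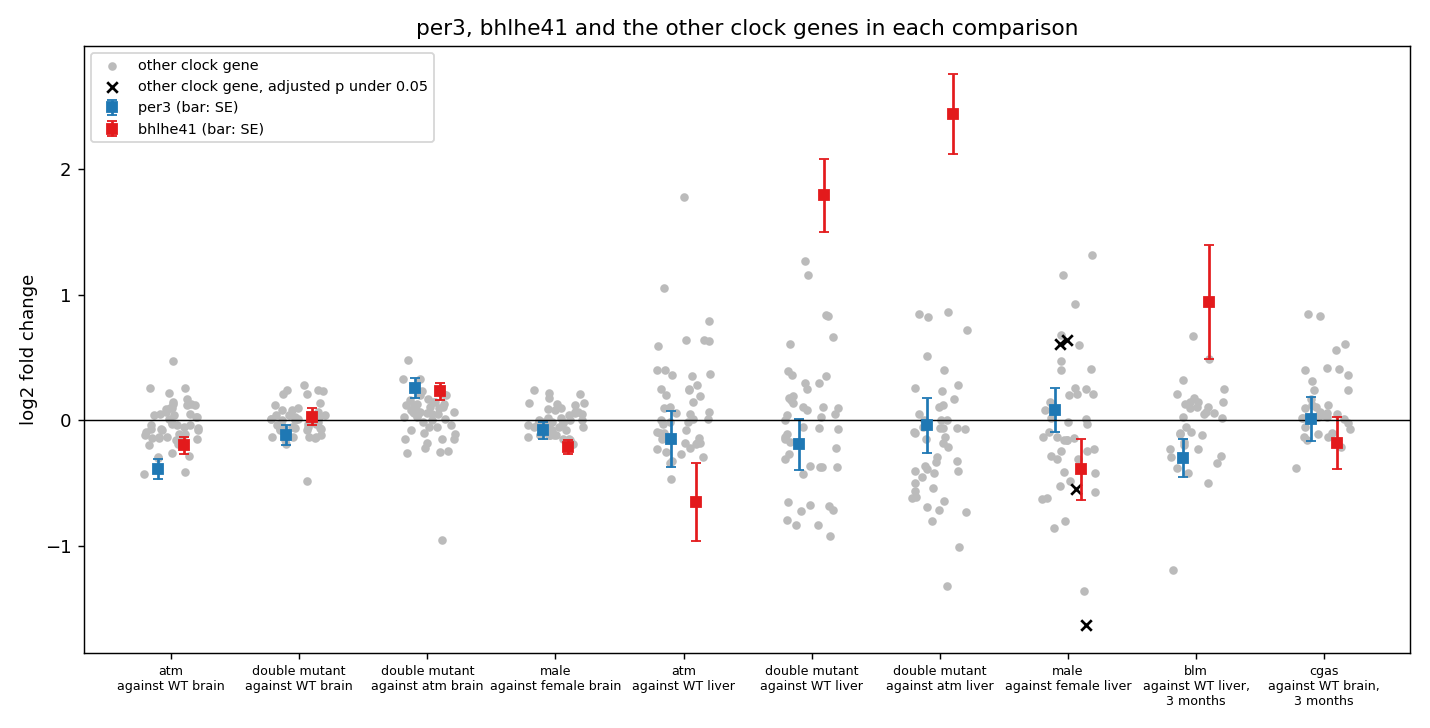
Log2 fold changes of per3 and bhlhe41 (squares, bars are SE) and of the other clock genes (grey points; crosses mark those with an adjusted p under 0.05) in each comparison named on the horizontal axis, mutants over WT, double mutants over atm mutants or males over females. The squares of bhlhe41, a gene chosen for its levels by genotype, lie above all grey points in double-mutant livers, at 1.79 and 2.44. The 4 crosses are all in the male to female comparison of livers.

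Within a tissue, edgeR called other clock genes in 1 contrast, males against females in liver. Of 48, 4 passed (background 2.58%), 2 higher (background 1.19%) and 2 lower (background 1.4%) in males, with 14 at an unadjusted p under 0.05 (29.2% of the list, 21.4% of all genes). Higher were tefa, a PAR bZIP gene (45.9 ± 5.72 CPM in males, 30.9 ± 5.02 in females; 0.61 on the log2 scale, SE 0.108, edgeR adjusted p = 0.0211), and ciarta, a repressor gene (19 ± 1.93 CPM in males, 12.1 ± 2.96 in females; 0.64, SE 0.139, adjusted p = 0.0434). Lower were rorc, a ROR receptor gene (4.62 ± 2.75 CPM in males, 14.2 ± 1.42 in females; -1.63, SE 0.361, edgeR adjusted p = 0.0479), and cpdp, a photolyase gene that repairs ultraviolet damage in light (11.9 ± 2.42 CPM in males, 17.5 ± 2.11 in females; -0.55, SE 0.122, adjusted p = 0.0479). All SD are over 5 males and 6 females. Males and females did not overlap for tefa, rorc and cpdp and overlapped for ciarta, and 3.53% of all genes did not overlap. DESeq2 called 10, the 4 among them, or 20.8% of the list against 11% of all genes. The number of calls changed with single livers: leaving out 1 at a time gave 0 to 6, with 0 without atm mutant 2, double mutant 2 or WT 4, 1 without atm mutant 1, double mutant 3, WT 1 or WT 3, and 2 without atm mutant 4, but 6 without double mutant 4. Without both livers of WT females 3 and 4 there were 0. Shares of all genes called with livers left out are not given here, so these counts do not set the clock list apart from other genes. The fold changes kept their direction: with 1 liver left out, that of tefa was 0.55 to 0.68, that of ciarta 0.57 to 0.75, that of rorc -2.01 to -1.44 and that of cpdp -0.62 to -0.46. Without both WT females they were 0.55, 0.71, -1.8 and -0.56.

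In a fit of both tissues without the fish as a block, the male to female difference itself differed between liver and brain for 7 of 51 clock genes (edgeR, background 4.23%). Fits of both tissues take the same estimate of spread per gene in each. The median SD of log2 CPM over all genes was 0.19 in brain and 0.43 in liver. What this did to the calls and SE below was not tested. There were 13 at an unadjusted p under 0.05 (22.8% of all genes) and 9 by DESeq2 (10.9% of all genes). With the fish as a block 2 passed, rorc and ciart, both among the 7. Shares of all genes called with the block are not given here. Setting the genotype effect in liver against that in brain gave 0 of 51 for atm mutants against WT (background 0.241%), with 4 at an unadjusted p under 0.05 by edgeR (13% of all genes) and 1 by DESeq2, cry1 (2.45% of all genes). It gave 0 of 51 for double mutants against WT (background 1.13%), with 12 at an unadjusted p under 0.05 by edgeR (15.4% of all genes) and 3 of 48 by DESeq2, nr1d2a, cry2 and gsk3b (6.5% of all genes). With the fish as a block edgeR called 1, nr1d2a. The same difference, liver minus brain, was 1.78 (SE 0.3) for bhlhe41 and -0.03 (SE 0.218) for per3 in double mutants against WT.

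Between the tissues, clock genes were called in both directions, as were genes at large. With TMM scaling, 17 of 51 clock genes were higher and 18 lower in liver than in brain (edgeR, background 83.9%, with 34.1% higher and 49.8% lower). The share of the list called higher was thus near that of all genes, and the share called lower was below it. The median of the list was then 0.02, above the median of all genes at -0.43. On total counts, where the median of all genes fell to -2.14, 1 clock gene was higher and 47 lower. The shares of all genes called on total counts are not given here, so those 2 counts describe the scaling and not the clock list. The widest differences were in rorb (-9.98 on the log2 scale, SE 0.339, edgeR adjusted p = 2.28e-12), per2 (-5.91, SE 0.378, adjusted p = 2.16e-09), nr1d4a (-4.5, SE 0.358, adjusted p = 2.52e-08) and xpc (-2, SE 0.121, adjusted p = 1.11e-09), all lower in liver. The fitted values of rorb and nr1d4a depend on the prior count, since livers held at most 0.118 CPM of rorb and 0.17 CPM of nr1d4a, some of them 0, where brains held at least 48 and 2.43 CPM. The gene noct, a clock output, was higher (2.85, SE 0.282, edgeR adjusted p = 3.03e-07). Beside the -5.91 of its paralog per2, per3 had 0.55 with the same scaling, on the other side of the median of all genes.

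In the 3-month tables, edgeR and DESeq2 called 0 of 34 clock genes between blm mutants and WT (background 0%), with 2 at an unadjusted p under 0.05 by edgeR (8.05% of all genes) and 1.53% of all genes called by DESeq2. Between cgas mutants and WT both called 0 of 35 (background 0.463%), with 0 at an unadjusted p under 0.05 by edgeR (8.39% of all genes) and 4.67% of all genes called by DESeq2. The median log2 fold change of the list was 0.02 in blm mutants and 0.06 in cgas mutants. A list of 15 glucocorticoid-responsive genes, kept because stress hormones also drive per genes, gave 0 edgeR calls in every comparison of genotype or sex. At an unadjusted p under 0.05 it gave at most 5, in livers of atm mutants against WT, 33.3% of the list where 10% of all genes passed. Its median log2 fold change there was 0.85 (all genes -0.02), and -0.44 in double-mutant against atm mutant livers (all genes 0.04, lowest adjusted p = 0.0863 by edgeR). DESeq2 called 3 of the list in double-mutant against WT livers, or 20% against 8.66% of all genes. In double-mutant against atm mutant livers it called 2 (13.3%, all genes 2.51%). It called 1 between male and female livers (6.67%, all genes 11%) and 1 in cgas mutants against WT (8.33%, all genes 4.67%). In the other comparisons within a tissue it called 0.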

How the data were processed

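The deposited tables hold counts per gene, whole numbers that the authors made from single-end reads and did not normalize. The submitters' processing notes name FastQC 0.11.8, Trim Galore 0.6.4, cutadapt 3.4, STAR 2.7.6a and edgeR 3.32.1, without roles. The genome build, annotation, counter and strand setting are not given in the sources used here. Of 39 samples, 37 libraries were used: 1 had 0 counts and 1 is not analysed here. Names of 8 genes were restored by position in the cgas table.

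CPM used TMM factors within tissue. Genes passing edgeR's filterByExpr were tested with edgeR 4.0.16 (quasi-likelihood, R 4.3.3, Benjamini-Hochberg adjusted p under 0.05), genotypes of a tissue together with sex as a covariate, and livers against brains with the fish as a block. DESeq2 1.42.0 was the alternative. The edgeR fit was also run on simulated counts, for double mutants (brain and liver), blm mutants and cgas mutants against WT. The other comparisons were not simulated. Correlations used log2 CPM (prior count 2). Deviations from the genotype and sex fit take the same sex difference in every genotype, so a sex difference that changes with genotype stays in them. Since titles only number the fish, p-values measure the spread between these samples.

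The members and the gene lists were chosen with earlier results of these data known. Named were both members, clock genes past the threshold (for liver against brain the 5 with the largest change), the 5 clock genes with the largest r per gene and tissue, and, over all genes with a symbol and a mean log2 CPM of at least 1, the 5 most alike per tissue and the 5 most alike and 3 most opposite in both tissues.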

Additional observations from a re-analysis of the deposited data

Results flagged for a closer look

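A library that stood far from the others of its group was looked for in 184 groups over 30 genes (Dixon's 95% limit). It was found in 6, where chance flags about 1 in 20 groups. For per3, the brain of double mutant 3 had 159 CPM, against 134 to 137 CPM in the other double mutants. In WT brain 1, hlfb had 34.7 CPM, against 44.9 to 46.9 CPM in the other WT brains. In WT liver 1, nr1d2a had 45.1 CPM, against 80.8 to 84.6 CPM in the other WT livers. In WT liver 2, nfil3-6 had 97.5 CPM and noct 39.8 CPM, against 19.9 to 29.9 CPM and 9.36 to 13.6 CPM in the other WT livers. In the 3-month WT liver L8, per1 had 33.8 CPM, against 40 to 40.1 CPM in the other WT livers of that table.

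For 7 clock genes the male to female log2 fold change differed between liver and brain (liver minus brain, edgeR adjusted p over all genes, in a fit without the fish as a block), as for 4.23% of all genes. Both tissues were read as coming from the same fish. With the fish as a block 2 of the 7 passed by edgeR, rorc (-1.68, adjusted p = 0.0159) and ciart (1.4, adjusted p = 0.0335). The other 5 then had adjusted p = 0.0933 (tefa), 0.132 (cry1), 0.0991 (dbpa), 0.0669 (ciarta) and 0.124 (nr1d1) by edgeR. Without the block the difference was -1.58 for rorc (SE 0.377, adjusted p = 0.0239), 0.66 for tefa (SE 0.158, adjusted p = 0.0238), 0.76 for cry1 (SE 0.189, adjusted p = 0.0303) and -0.83 for dbpa (SE 0.208, adjusted p = 0.0305). It was 0.73 for ciarta (SE 0.153, adjusted p = 0.0113), 0.77 for nr1d1 (SE 0.2, adjusted p = 0.0361) and 1.38 for ciart (SE 0.297, adjusted p = 0.0131). Leaving out 1 fish at a time gave 1 to 8 such genes, the lowest count without WT 4. Shares of all genes called in those fits or with the block are not given here.

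In liver, the ratio of bhlhe41 in males to females was 0.858 in atm mutants and 0.441 in double mutants, against 1.28 in WT, with males below females in the mutants and above in WT, as for 1.61% of all genes. The order rests on 1 male and 2 females in atm mutants and 2 of each in the others, and these differences were not tested.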

How the results depend on the processing

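DESeq2's Wald test, which also called more of all genes, called more clock genes than edgeR: 1 in atm mutant against WT brains, 6 in double-mutant against WT livers, 2 in double-mutant against atm mutant livers, 10 between male and female livers, and, for liver minus brain, 1 in atm mutants and 3 in double mutants against WT and 9 for sex (7 by edgeR). Between male and female livers, 2 were called with no filter on low counts. When only genes of the 3-month tables were tested, 2 were called, tefa and rorc. The genes ciarta and cpdp are not in those tables and could not be called there. Without the livers of WT females 3 and 4 (chosen after seeing the data) 0 were called there, per3 and bhlhe41 were -0.53 and 1.22 in double mutants against WT, and -0.22 and -0.84 in males against females. On total counts, liver against brain was -1.17 for per3 and -3.68 for bhlhe41. The deviations from the genotype and sex fit gave r = -0.19 for per3 with bhlhe41 in brain and -0.77 for bhlhe41 between brain and liver of the same fish (double mutants left out). The cause was not tested.

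Leaving out 1 library at a time, clock calls ran from 0 to 3 in double-mutant against WT livers, 0 to 2 against atm mutant livers and 0 to 6 between male and female livers. For liver minus brain they ran from 0 to 2 in atm mutants and 0 to 3 in double mutants against WT, and 1 to 8 for sex. The shares of all genes called in these fits are not given here, so the counts describe stability and not the clock list. For per3 in cgas mutants against WT the log2 fold change ran from -0.16 to 0.17.

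With the fish as a replicate block, liver minus brain gave 1 call in double mutants against WT and 2 for sex. Replicate numbers shared between genotypes mark different fish, and in none of the 6 pairs of groups were all same-number correlations over 0.1: they ran from -0.282 to 0.219 in brains and from -0.433 (atm mutants and WT) to 0.293 (double mutants and atm mutants) in livers. For these correlations the genotype means were removed but not sex, and every same-number pair of atm mutant and WT livers was of opposite sex. The correlations therefore cannot tell sex from any link between fish of the same number. A replicate block by number left the clock calls at 0 in all 6 genotype comparisons at 2 months. With it, bhlhe41 in double mutants was 1.81 against WT and 2.39 against atm mutants. Few counts of the gene limit bhlhe41 most in the 2-month livers of atm mutants and WT, at 79 to 269 per library.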
